A study of Mus musculus with 54 samples.

Results

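Blood vessel lining was followed in mouse gonads through 10 endothelial genes, namely Pecam1, Cdh5, Kdr, Flt1, Tie1, Tek, Emcn, Esam, Eng and Vwf. They were picked by gene symbol from the deposited count tables of testis and ovary, where they are 10 of 26264 entries in each. All 10 passed the filter on low counts in every comparison. The study gave pregnant mice and their young a mixture of ibuprofen, 2-hydroxyibuprofen (its metabolite), diclofenac (another anti-inflammatory drug) and ethinyl-estradiol (a synthetic oestrogen) in the drinking water, from 8.5 days post-coitum until the animals were killed. Polyadenylated RNA of the gonads was sequenced in 54 libraries, 27 per tissue, in 9 groups of 3 libraries (A, B and C) per tissue.

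The first generation (F1) had 3 groups. Its control received dilute ethanol alone. Water of dose 1 contained ibuprofen at 11.3 ng/L, 2-hydroxyibuprofen at 90 ng/L, diclofenac at 22.5 ng/L and ethinyl-estradiol at 2.25 ng/L. In dose 2, ibuprofen was at 113 ng/L, 2-hydroxyibuprofen at 225 ng/L, diclofenac at 112 ng/L and ethinyl-estradiol at 45 ng/L. The second generation (F2) is labelled as untreated and had 6 groups, named here by the F1 parent that belonged to a dose group. These are mother dose 1 and mother dose 2 (father a control), father dose 1 and father dose 2 (mother a control), both parents dose 2, and control parents. Testes came from animals aged 10 weeks and ovaries from animals aged 8 weeks, so tissue, sex and age cannot be told apart. Cross codes in the tables were read with the male first, as in the sample titles; the table headers do not state it. The labels give no strain and do not say that libraries A, B and C come from separate animals or litters. The tests therefore rest on differences among samples that may not be independent of each other.

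Total counts, in units of 1e6, were 35.6 to 102 per ovary library (median 43.8) and 31.8 to 46.4 per testis library (median 37.7). Levels are CPM, the counts of a gene scaled to a library total of 1e6. Fold changes are log2 values from edgeR's quasi-likelihood test. The standard error beside each was derived here, as its absolute value divided by the square root of the F statistic of that test. A gene is called where its Benjamini-Hochberg adjusted p over all genes tested is under 0.05. The tissues carried their own germ cell and somatic markers: 6 spermatid genes summed to 0.188 to 3.06 CPM in ovary libraries and to 9450 to 22100 CPM in testis libraries, whereas 7 granulosa cell genes summed to 2760 to 5390 CPM in ovary libraries and to 87.6 to 129 CPM in testis libraries. Some ovary libraries stood apart. Summed oviduct epithelium genes (Ovgp1 and Foxj1) reached 1110 CPM in F1 dose 2 library A, 362 CPM in F1 dose 2 library B and 139 CPM in F1 control library A, against 3.49 to 19.8 CPM in the other ovary libraries.

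Endothelial cells form the inner surface of blood vessels. They are joined by VE-cadherin (Cdh5), PECAM-1 (Pecam1) and ESAM (Esam), and they grow in response to vascular endothelial growth factor (VEGF), which signals mainly through the receptor Kdr and is also bound by Flt1. Angiopoietins act on the receptor Tek, also called Tie2, and the related receptor Tie1 modulates that signal. Endomucin (Emcn) is a sialomucin of the endothelial surface, endoglin (Eng) is a co-receptor for ligands of the TGF-beta and BMP family, and von Willebrand factor (Vwf) is stored in endothelial granules and captures platelets at wounds. In the ovary, vessels grow and regress with each cycle around follicles and corpora lutea, while in the testis they run through the interstitium between the seminiferous tubules.

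Transcription factors of the ETS family bind promoters and enhancers of many endothelial genes, so the promoters were searched for ETS letters. RefSeq promoter sequences of the GRCm38.p6 build matched 6 of the 10 genes by symbol, Emcn, Eng, Flt1, Kdr, Tek and Tie1. The 250 bases before the RefSeq start are shown for the 4 with the highest number of ETS matches, Emcn with 4 (chr3:137340828-137341077, plus strand), Eng with 2 (chr2:32646345-32646594, plus strand), Flt1 with 2 (chr5:147726012-147726261, minus strand) and Tie1 with 2 (chr4:118489850-118490099, minus strand). Starts differ between sources: in the GENCODE gene models used below for lengths, the last bases of the Emcn window and most of the Tie1 window lie inside the gene. Capitals mark, on either strand, the ETS word CCGGAA, the second ETS word AGGAAG and the joint FOX and ETS word ACAGGAA, whose matches can overlap those of the second, as in Emcn.
Emcn: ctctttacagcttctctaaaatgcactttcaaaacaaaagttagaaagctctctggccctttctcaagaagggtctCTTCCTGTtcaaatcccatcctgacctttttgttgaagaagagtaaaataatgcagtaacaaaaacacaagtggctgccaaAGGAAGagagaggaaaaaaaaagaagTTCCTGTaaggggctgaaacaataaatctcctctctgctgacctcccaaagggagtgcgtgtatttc
Eng: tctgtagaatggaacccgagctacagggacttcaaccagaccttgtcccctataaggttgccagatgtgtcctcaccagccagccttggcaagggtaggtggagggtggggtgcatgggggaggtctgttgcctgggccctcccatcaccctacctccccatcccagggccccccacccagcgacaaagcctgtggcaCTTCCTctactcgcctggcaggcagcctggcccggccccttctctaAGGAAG
Flt1: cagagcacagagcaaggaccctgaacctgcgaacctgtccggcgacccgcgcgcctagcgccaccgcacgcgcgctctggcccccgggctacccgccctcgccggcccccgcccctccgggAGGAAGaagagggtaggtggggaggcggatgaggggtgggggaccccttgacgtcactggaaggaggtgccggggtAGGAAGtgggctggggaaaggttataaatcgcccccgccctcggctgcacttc
Tie1: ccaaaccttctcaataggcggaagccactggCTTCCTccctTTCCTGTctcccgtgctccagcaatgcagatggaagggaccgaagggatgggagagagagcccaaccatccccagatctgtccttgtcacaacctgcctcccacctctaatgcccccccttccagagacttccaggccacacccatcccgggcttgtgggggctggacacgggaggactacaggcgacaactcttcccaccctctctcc

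The letters AGGAAG stood in the promoters of Emcn, Eng, Flt1 and Tie1 and in 29.5% of the 32851 promoters in the table. ACAGGAA stood in Emcn and Tie1 and in 7.2% of all promoters, and CCGGAA in Kdr and in 12.0% of all promoters. At least 1 of these 3 words was found in 5 of the 6 promoters, Tek being the exception, and in 41.0% of all promoters. GGGTGG, a letter group of the KLF family, stood in Eng, Flt1, Kdr and Tie1 (28.1% of all promoters), ACAAAG, of the SOX family, in Eng and Tek (16.5%), and the GATA letters AGATAA in none of the 6 (9.99%). These matches describe the letters in this window and are not binding sites.

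The ovary held far more endothelial RNA per library than the testis for 9 of the 10 genes, and Vwf was the exception. Summed over the 10 genes, ovary libraries had 551 to 929 CPM (median 646) and testis libraries 54.8 to 88.8 CPM (median 66.7). In bulk tissue, fewer cells of a type and less RNA per cell cannot be told apart. The comparison of ovary with testis was made in the F1 controls and again in the F2 animals of control parents, with all 4 groups in 1 fit, and all 10 genes were called in each. The background was high, with 85.4% of 20044 genes called between the F1 controls and 85.1% between the F2 control groups, so the number of calls says little about these genes. All 3 ovary libraries lay above all 3 testis libraries for 9 of the 10 genes in both generations, as they did for 49.1% of all genes in the F1 controls and 52.2% in F2.

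Among the junction genes, Pecam1 had 66.4, 83.8 and 69.7 CPM in F1 control ovaries, against 3.31, 2.98 and 3.36 CPM in F1 control testes. Its log2 fold change, ovary over testis, was 3.98 ± 0.16 (15.7-fold, edgeR adjusted p = 1.37e-10) in the F1 controls and 3.64 ± 0.16 in F2. Cdh5 was higher by 3.36 ± 0.22 in the F1 controls and 2.98 ± 0.22 in F2, and Esam by 3.54 ± 0.17 and 3.25 ± 0.17. Among VEGF receptors, Kdr was higher in ovary by 3.02 ± 0.21 and 3.14 ± 0.21 in the F1 controls and in F2, and Flt1 by 2.08 ± 0.19 and 1.75 ± 0.19. Of the angiopoietin receptors, Tie1 was higher by 3.95 ± 0.15 and 3.53 ± 0.15, and Tek by 1.76 ± 0.15 and 1.78 ± 0.15. Emcn, the gene with the lowest counts here (24 to 69 per testis library), had 36.1, 21.6 and 23.9 CPM in F1 control ovaries, against 0.997, 0.859 and 1.34 CPM in F1 control testes, a log2 fold change of 4.14 ± 0.30. Eng had 168, 188 and 160 CPM in F1 control ovaries and 9.11, 10.5 and 6.76 CPM in F1 control testes (log2 3.77 ± 0.19). In F2 it had 132, 138 and 172 CPM in ovaries and 15.7, 14.4 and 18.1 CPM in testes of control parents (log2 2.62 ± 0.18).

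Vwf had 15.4, 14.6 and 20.1 CPM in F1 control ovaries and 20.1, 18.7 and 16.6 CPM in F1 control testes, and the libraries of the tissues overlapped. After scaling for composition it was called lower in ovary (log2 -0.68 ± 0.20, edgeR adjusted p = 0.00665). In F2 of control parents it had 16.2, 24.2 and 14.4 CPM in ovaries against 27.7, 23.3 and 31 CPM in testes, again overlapping (log2 -1.15 ± 0.20, adjusted p = 0.000141). This direction leans on the scaling, because scaling factors ran from 0.801 to 1.26 across the tissues: with library totals alone the median of all genes moved to 0.54 in the F1 controls and 0.58 in F2, and Vwf stood at -0.15 (adjusted p = 0.504, range over its alternatives 1.08e-05 to 0.504) and -0.58 (adjusted p = 0.0168). The direction relative to the median of all genes was the same under each scaling. Vwf made up 1.59 to 4.39% of the summed CPM of the 10 genes in ovary libraries (median 2.56%) and 26.5 to 34.9% in testis libraries (median 30.1%). Vwf is also made by megakaryocytes and carried by platelets. Summed, 6 platelet genes reached 90.7 to 246 CPM in ovary libraries and 8.53 to 11 CPM in testis libraries, but they did not move together. In the F1 controls Itgb3 (log2 5.13) and Pf4 (1.6) were called higher in ovary and Gp1bb (-1.26) was called lower. In F2 Itgb3 (4.84) was called higher and Gp1bb (-1.34) lower. The part of platelets in the Vwf level was not tested.

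**Figure D1:**
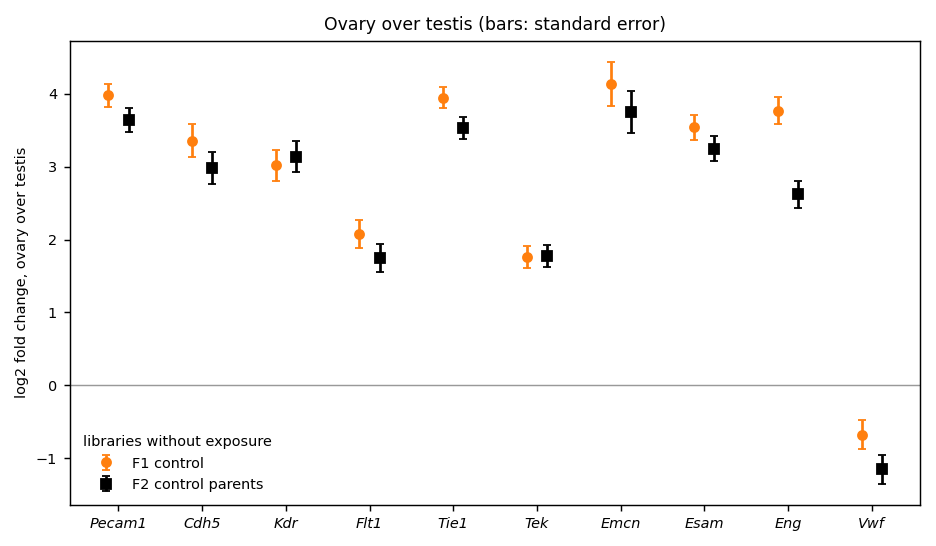
Log2 fold change of each endothelial gene, ovary over testis (vertical axis; bars are standard errors, 3 libraries per group), in F1 controls and in F2 of control parents. 9 genes lie between 1.75 and 4.14, and Vwf alone lies below 0, at -0.68 in F1 controls and -1.15 in F2.

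Per kilobase of merged exon (GENCODE annotation of GRCm38, used for lengths only), Eng ranked highest in each tissue, with a median of 45.3 CPM per kb in ovary and 2.96 CPM per kb in testis. Vwf, spread over 54 merged exons and 9782 exon bases, ranked next to it in testis (2.07 CPM per kb) and last in ovary (1.72 CPM per kb). Next came Cdh5 with 30.6 CPM per kb in ovary and 1.89 in testis, and Esam with 26.3 in ovary and 1.41 in testis. Pecam1 was at 17.4 CPM per kb in ovary and 0.731 in testis, and Kdr at 15.6 and 1.12. Tie1 stood at 12.3 CPM per kb in ovary and 0.467 in testis, Emcn at 9.22 and 0.397, Tek at 6.27 and 1.03, and Flt1, with 10961 exon bases, at 4.15 and 0.725. Eng shares 61 exon bases with Fpgs on the opposite strand, and no source used here gives the strand setting of the counting. Reads of Fpgs in that stretch may therefore stand in its count.

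Other vascular genes were higher in ovary as well, in a comparison that called 42.2% of all genes higher and 43.2% lower in the F1 controls, and 41.9% higher and 43.2% lower in F2. All 22 other endothelial surface, junction and enzyme genes were called higher in both generations (median log2 3.22 in the F1 controls and 2.98 in F2), among them Plvap, which forms the diaphragms of fenestrae (5.14 in the F1 controls). So were all 11 pericyte and vascular smooth muscle genes (median 3.56 and 3.09) and all 4 genes of the angiopoietin group, with Angpt2 at 3.28 and Angpt1 at 5.06 in the F1 controls. Of 8 VEGF ligands and co-receptors, 7 were called higher, including Vegfa (4.38) and Nrp1 (3.91), and Pgf was called lower (-0.91). Of 12 endothelial transcription factors, 8 were called higher, with Ets1 at 3.93, and Klf4 (-4.27), Gata2 (-2.16) and Sox17 (-0.79) were called lower in the F1 controls. Of 14 tested endoglin partner, Notch and ephrin genes, 11 were called higher and 2 lower in the F1 controls, and 10 higher and 2 lower in F2. Acvrl1, the kinase receptor that works with endoglin, stood at 3.34, and Smad6 (-0.90) and Jag1 (-0.81) were the lower ones in the F1 controls. Of 4 lymphatic endothelium genes, Pdpn (3.90) and Lyve1 (4.79) were called higher in the F1 controls and Prox1 (-1.52) was called lower. In F2 they stood at 3.24, 4.86 and -1.83, each called. Pgf, Sox17, Smad6 and Jag1 are named because they were the exceptions, a choice made after their values were seen.

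Exposure of the F1 testis called none of the 10 genes. At dose 1, edgeR called 0 of the 10 (0.0317% of 18923 genes), 1 had an unadjusted p under 0.05 (8.55% of genes) and DESeq2 called 0 (0.729% of genes). At dose 2, edgeR called 0 (2.21% of genes), 5 had an unadjusted p under 0.05 (23.6% of genes) and DESeq2 called 2, Flt1 and Vwf (10.1% of genes). Between the doses it called 0 (0.227%; 1 and 20.3% of genes at an unadjusted p under 0.05; 1, Vwf, and 6.73% of genes by DESeq2), and in the test of any difference among the 3 F1 groups also 0 (0.513%; 2 and 21.8% at an unadjusted p under 0.05; 1, Vwf, and 10.0% by DESeq2).

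The values closest to a call in the F1 testis were those of Vwf and Flt1 at dose 2. Vwf had 24.3, 26.2 and 22.4 CPM at dose 2, against 20.1, 18.7 and 16.6 CPM in controls, so all dose 2 libraries lay above all control libraries (log2 0.36 ± 0.096, adjusted p = 0.0703, range over its alternatives 0.0132 to 0.285). At dose 1 it had 16.9, 19.8 and 19.2 CPM, within the range of the controls. Flt1 had 6.35, 6.09 and 7.13 CPM in controls, 7.95, 7.87 and 8.5 CPM at dose 1 and 8.98, 10.4 and 7.74 CPM at dose 2. Both doses lay above the controls (log2 0.32 ± 0.13 with adjusted p = 0.55 at dose 1, and 0.43 ± 0.13 with adjusted p = 0.0929 at dose 2, edgeR). Cdh5 had 8.19, 9.05 and 8.58 CPM at dose 2, above its 7.66, 7.02 and 5.9 CPM in controls (log2 0.30 ± 0.18, adjusted p = 0.328). Eng averaged 12.2 ± 2.43 CPM at dose 2 and 8.8 ± 1.9 CPM in controls (SD, n = 3 each; log2 0.44 ± 0.17, edgeR adjusted p = 0.16), and Tek 3.97 ± 1.29 CPM at dose 2 and 5.54 ± 0.403 CPM in controls (log2 -0.52 ± 0.20, adjusted p = 0.156); for both the libraries overlapped. All libraries lay above the controls for 1 of the 10 genes and 5.91% of all genes at dose 1, and for 3 of the 10 and 20.1% of all genes at dose 2, with 15.6% of genes fully below at dose 2. Over the 10 genes the median log2 fold change was -0.06 at dose 1 and 0.12 at dose 2, beside medians over all genes of 0 and 0.01. At dose 2 all 11 pericyte and vascular smooth muscle genes also stood above 0, with Myh11 called (0.36 ± 0.075), and the Leydig cell gene Star was called lower (-0.74 ± 0.13). Flt4, of the VEGF group, was called higher at dose 2 than at dose 1 (log2 0.62 ± 0.097, edgeR adjusted p = 0.0376). It was also called in the test of any difference among the F1 groups (edgeR adjusted p = 0.045). The part of these other genes in the values above was not tested.

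**Figure D2:**
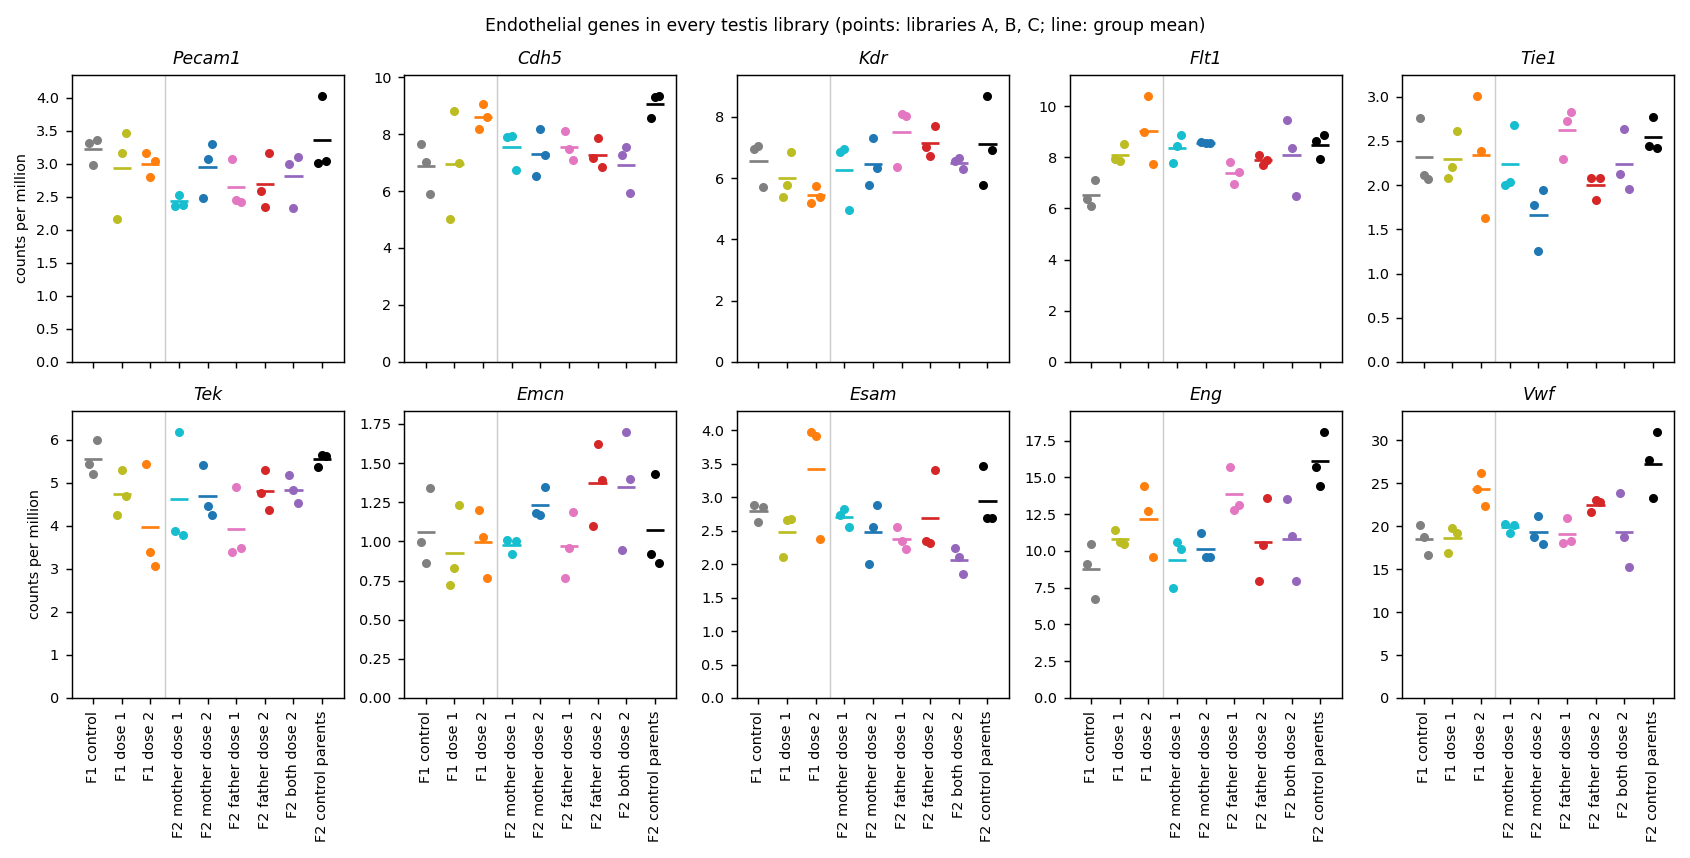
CPM (vertical axes, from 0) of each endothelial gene in every testis library by group, with F1 left of the grey line and F2 right of it; points are libraries and lines are group means. Vwf in F2 of control parents lies at 23.3 to 31 CPM, and every other testis group lies at 15.3 to 26.2 CPM.

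In the F2 testis, the crosses with an exposed parent were set against the cross of control parents, and Vwf was the one gene of the 10 that was called. Vwf had 20.3, 19.2 and 20.2 CPM for mother dose 1 and 18.8, 21.2 and 17.9 CPM for mother dose 2. It had 18, 21 and 18.3 CPM for father dose 1, 21.7, 23.1 and 22.8 CPM for father dose 2, and 23.9, 18.8 and 15.3 CPM for both parents dose 2. In testes of control parents it had 27.7, 23.3 and 31 CPM. All libraries of the single-parent crosses lay below all those of control parents, and library A of both parents dose 2 lay above the lowest one. Vwf was called lower for mother dose 2 (log2 -0.51 ± 0.13, edgeR adjusted p = 0.0488), for father dose 1 (-0.54 ± 0.13, adjusted p = 0.0224) and for both parents dose 2 (-0.49 ± 0.13, adjusted p = 0.0348), and not for mother dose 1 (-0.47 ± 0.13, adjusted p = 0.0849) or father dose 2 (-0.31 ± 0.13, adjusted p = 0.148). The 5 comparisons share the 3 control parents libraries, and the calls rest on them. Without control parents library A the adjusted p of Vwf was 0.179 for mother dose 2, 0.0881 for father dose 1 and 0.142 for both parents dose 2, and without library C it was 0.263, 0.124 and 0.199 in the same order. Without library B, the lowest of the 3, all 5 crosses were called, with adjusted p of 0.0237, 0.00925, 0.00669, 0.0405 and 0.0085 for the mother crosses (dose 1, dose 2), the father crosses (dose 1, dose 2) and both parents. Leaving out libraries of the crosses ended calls too: the call for mother dose 2 was lost without any of its A, B or C (adjusted p = 0.107, 0.0749 and 0.161), that for father dose 1 without its A or C (0.0703 and 0.112), and that for both parents dose 2 without its B or C (0.128 and 0.0872). The call for mother dose 2 was also lost with library totals (0.0591), with the replicate block (0.0555) and with only the 6 libraries compared (0.079), so it held in 5 of 13 alternatives. Over all alternatives the adjusted p ran from 0.00925 to 0.263, from 0.00305 to 0.124 and from 0.0085 to 0.254 for these 3 crosses.

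Eng values lay lower too, without a call. It had 7.51, 10.6 and 10.1 CPM for mother dose 1, against 15.7, 14.4 and 18.1 CPM for control parents (log2 -0.79 ± 0.19, edgeR adjusted p = 0.0604). Against the same controls it had 11.2, 9.57 and 9.6 CPM for mother dose 2 (-0.67 ± 0.19, adjusted p = 0.0752) and 7.94, 10.4 and 13.6 CPM for father dose 2 (-0.62 ± 0.19, adjusted p = 0.0599). In these 3 crosses, and for both parents dose 2 (13.5, 11 and 7.96 CPM; -0.57 ± 0.19, adjusted p = 0.0886), every library lay below those of control parents. For father dose 1 the libraries, at 15.7, 12.8 and 13.1 CPM, overlapped them (-0.24 ± 0.19, adjusted p = 0.547). Cdh5 lay at 5.92 to 8.17 CPM in the 15 libraries of the 5 crosses, all below its 8.57, 9.29 and 9.34 CPM in testes of control parents. Its log2 fold changes were -0.28 to -0.38, and the smallest adjusted p was 0.0634, for both parents dose 2. Tie1 was at 1.78, 1.25 and 1.95 CPM for mother dose 2 against 2.44, 2.77 and 2.42 CPM for control parents, with no overlap (-0.62 ± 0.19, adjusted p = 0.0918).

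The 6 remaining genes gave no call either. Pecam1 stood between -0.19 and -0.48 in the 5 crosses and Esam between -0.14 and -0.50. Tek stood between -0.19 and -0.52, Kdr between -0.19 and 0.05, Flt1 between -0.22 and 0.01, and Emcn between -0.17 and 0.34. Counting the 10 genes by cross, edgeR called 0 for mother dose 1 (0.816% of 19241 genes; 4 and 17.9% of genes at an unadjusted p under 0.05; 2, Eng and Vwf, and 3.4% of genes by DESeq2), 1 for mother dose 2 (1.7%), 1 for father dose 1 (3.97%), 0 for father dose 2 (5.33%; 3 and 24.3% of genes at an unadjusted p under 0.05; 1, Eng, and 9.63% of genes by DESeq2) and 1 for both parents dose 2 (4.59%). With the crosses in that same order, log2 fold changes were below 0 for 10, 8, 8, 9 and 9 of the 10 genes, with medians of -0.24, -0.25, -0.26, -0.27 and -0.22 beside medians over all genes of 0, 0, -0.01, 0 and 0.01. All libraries of the cross lay below those of control parents for 4, 4, 5, 5 and 4 of the genes, and for 13.3, 11.7, 10.2, 12.4 and 12.5% of all genes. The test of any difference among the 6 F2 groups called Vwf (adjusted p = 0.0476; 6.03% of genes), and the call was lost in most fits without 1 library (adjusted p = 0.0137 to 0.208). Eng followed at 0.0566. Father and mother crosses were not told apart at either dose: edgeR called 0 of the 10 at dose 1 (1.16% of genes; 1, Eng, and 15.1% of genes at an unadjusted p under 0.05; 0 and 2.73% by DESeq2) and 0 at dose 2 (0.109%; 0 and 7.14%; 0 and 0.483%).

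Markers of other cells moved in these comparisons too, and their part in the results was not tested. Summed macrophage genes were at 62.8 to 83 CPM in the crosses and 89.8 to 92.8 CPM in testes of control parents, and summed Leydig cell genes at 791 to 1350 CPM and 1340 to 1490 CPM. Summed pericyte and vascular smooth muscle genes were at 91.6 to 131 CPM in the crosses and 136 to 138 CPM in control parents, and all 11 had log2 fold changes below 0 in each cross, with Acta2 called for father dose 2 (-0.47) and both parents dose 2 (-0.49). The macrophage gene Cx3cr1 was called lower in all 5 crosses (-1.02 to -1.67). Of the germ cell genes, the spermatocyte genes Hormad1 (0.33 to 0.41) and Sycp1 (0.51 to 0.58) were called higher in every cross but mother dose 1. The 4 spermatocyte genes summed to 413 to 500 CPM in the crosses and 318 to 437 CPM in control parents. The 6 spermatid genes summed to 9450 to 16600 CPM and 11400 to 12600 CPM. For both lists the libraries overlapped. Summed platelet genes were at 8.53 to 10.7 CPM in the crosses and 9.14 to 11 CPM in control parents. Of the 22 other endothelial genes, 0 to 2 were called in a cross, each of them higher, with medians of -0.01 to -0.21. Rasip1, needed for vessel lumen formation, was called higher in every cross but mother dose 1: by 0.58 ± 0.13 for mother dose 2, by 0.61 ± 0.13 and 0.54 ± 0.13 for the father at dose 1 and dose 2, and by 0.46 ± 0.13 for both parents. Nos3, the endothelial nitric oxide synthase, was called higher for father dose 1 (0.71 ± 0.18). Of the VEGF group, Nrp1, Vegfd and Pgf were called lower for mother dose 2 (-0.69, -0.92 and -0.83), Vegfd for father dose 1 (-1.15), and Vegfb and Nrp1 for both parents dose 2 (-0.60 and -0.55). The lymphatic endothelium gene Pdpn was called lower for mother dose 1 (-1.30), mother dose 2 (-0.96) and father dose 2 (-1.35). It was called higher in father dose 1 over mother dose 1 (1.85). Jag1, of the Notch group, was called lower for father dose 1 (-0.33).

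The testis of F2 animals of control parents was itself higher than the F1 control testis for some of these genes. Vwf rose to 27.7, 23.3 and 31 CPM in F2 of control parents, against 20.1, 18.7 and 16.6 CPM in F1 controls (log2 0.55 ± 0.12, edgeR adjusted p = 0.00585), and it was called in all 11 alternatives. Eng rose to 15.7, 14.4 and 18.1 CPM, against 9.11, 10.5 and 6.76 CPM in F1 controls (0.86 ± 0.19, adjusted p = 0.00739), and was called in 10 of 11 alternatives, the exception being the fit without F1 control C (0.72, adjusted p = 0.0587, the highest over its alternatives; the lowest was 0.00047). Flt1 rose to 8.62, 7.93 and 8.87 CPM, against 6.35, 6.09 and 7.13 CPM in F1 controls (0.36 ± 0.12, adjusted p = 0.0436), and lost its call in 6 of 11 alternatives (adjusted p up to 0.128). Cdh5 did not pass (0.39 ± 0.14, adjusted p = 0.0614). For these 4 of the 10 genes all F2 libraries lay above all F1 libraries, as for 18.8% of all genes, while 17.3% of genes lay fully below. So 3 of the 10 genes were called, all higher, where 14.5% of 19467 genes were called. The labels give no library batch, F1 controls drank dilute ethanol and F2 animals are labelled untreated, so generation, batch and water cannot be told apart. Summed pericyte genes were at 136 to 138 CPM in F2 of control parents and 93.9 to 101 CPM in F1 controls, Leydig cell genes at 1340 to 1490 and 1090 to 1130 CPM, and spermatid genes at 11400 to 12600 and 15200 to 22100 CPM; their part in the result was not tested. Among vascular genes outside the 10, Rasip1 (-0.50 ± 0.12), Nos3 (-0.70 ± 0.17) and Hey1 (-0.59 ± 0.15) were called lower in F2 of control parents. Called higher there were Nrp1 (0.62), Nrp2 (0.34), Smad5 (0.31), Jag1 (0.30), Sox7 (0.52), Epas1 (0.36) and the lymphatic endothelium gene Pdpn (1.31). Pericyte and vascular smooth muscle genes were called higher too, among them Acta2 (0.62), Notch3 (0.66), Pdgfrb (0.66) and Cspg4 (0.57).

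The effect of dose 2 in the testis was then compared between generations, as the difference of the log2 fold change of both parents dose 2 over control parents and that of F1 dose 2 over F1 control. Vwf differed by -0.85 ± 0.17 (edgeR adjusted p = 0.00542), Eng by -1.0 ± 0.27 (adjusted p = 0.0234) and Cdh5 by -0.67 ± 0.20 (adjusted p = 0.0324). Their F2 changes were below 0 and their F1 changes above 0. Esam (-0.74 ± 0.26, adjusted p = 0.0656) and Flt1 (-0.48 ± 0.17, adjusted p = 0.0604) did not pass. These 3 of 10 stand beside 10.6% of 19467 genes. Vwf was called in all 17 alternatives. Cdh5 and Eng were each called in 12 of 17 and lost the call without F1 control C (adjusted p = 0.0949 for Cdh5 and 0.0736 for Eng), F1 dose 2 A (0.0511 and 0.0725), F1 dose 2 B (0.0774 and 0.0595), control parents C (0.0718 and 0.0646) or both parents dose 2 C (0.0881 and 0.0679). Over their alternatives the adjusted p reached from 0.0115 to 0.0949 for Cdh5 and from 0.00542 to 0.0736 for Eng. Both control groups enter this difference, and they themselves differed for Vwf and Eng.

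**Figure D3:**
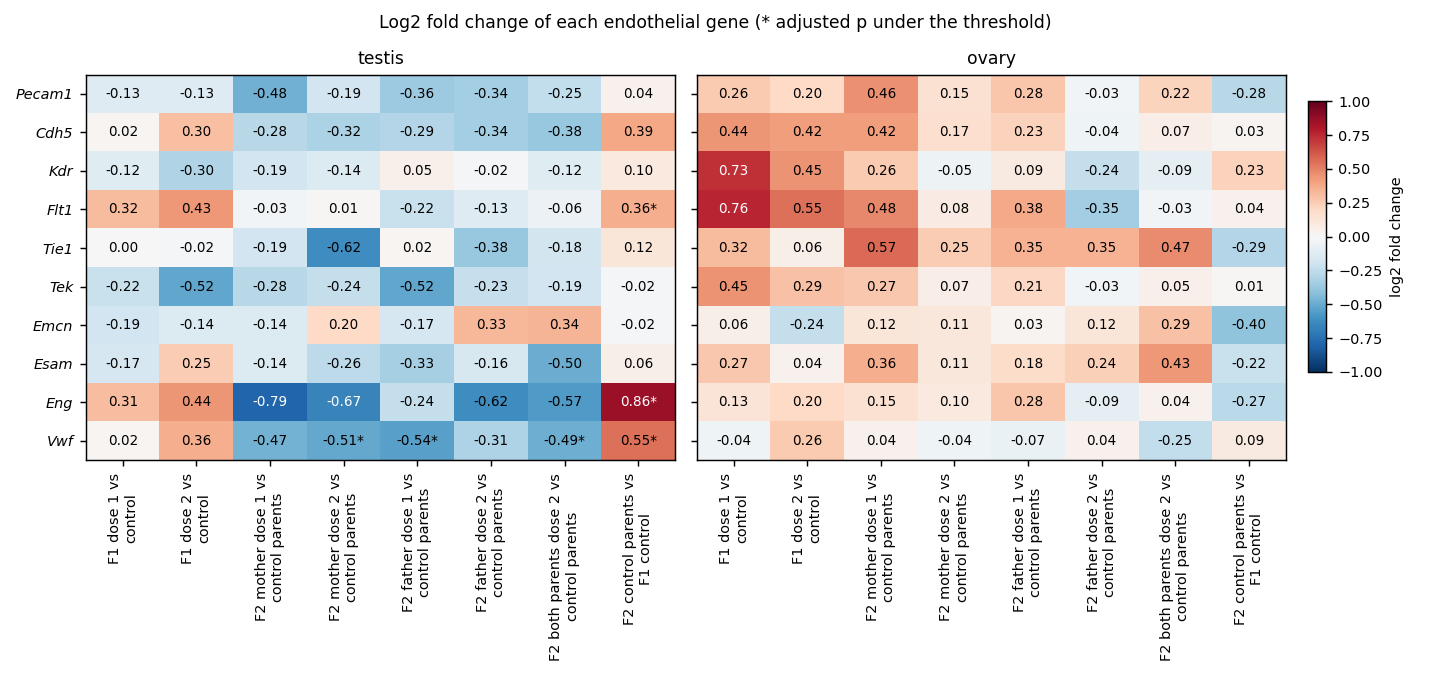
Log2 fold change (colour and printed value) of each endothelial gene (rows) in 8 comparisons per tissue (columns); an asterisk marks an adjusted p under 0.05. In testis, Vwf carries asterisks at -0.51, -0.54 and -0.49 in F2 crosses and at 0.55 in F2 of control parents over F1 control, where Eng (0.86) and Flt1 (0.36) carry them too; the ovary columns carry none.

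In the ovary, edgeR called none of the 10 genes in any of 14 comparisons. The F1 comparisons called 0 of 17168 genes in all: dose 1 over control (0% of genes; 3 of the 10 and 5.27% of genes at an unadjusted p under 0.05; 1, Flt1, and 0.454% of genes by DESeq2), dose 2 over control (0%; 1 and 12.0%; 0 and 1.74% by DESeq2), dose 2 over dose 1 (0%; 0 and 4.71%; 0 and 1.58%) and any difference among the groups (0%; 3 and 7.43%; 1, Flt1, and 2.52%). Within this, the VEGF receptors stood highest at dose 1. Flt1 had 31.4, 45.4 and 43.6 CPM in controls, 75.2, 65.3 and 63.7 CPM at dose 1 and 62.1, 50.2 and 67.1 CPM at dose 2. Kdr had 51.4, 92.2 and 88.3 CPM in controls, 144, 125 and 117 CPM at dose 1 and 101, 103 and 118 CPM at dose 2. For both genes all libraries of either dose lay above all control libraries. At dose 1, Flt1 had a log2 fold change of 0.76 ± 0.17 (unadjusted p = 0.00144 and adjusted p = 0.59 by edgeR; adjusted p = 0.0189 by DESeq2, range over its alternatives 0.0189 to 0.878), and Kdr 0.73 ± 0.20 (edgeR unadjusted p = 0.00588 and adjusted p = 0.726; 0.137 by DESeq2). At dose 2 they stood at 0.55 ± 0.17 and 0.45 ± 0.20 (adjusted p = 0.411 for each).

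Other genes followed at smaller size. Tek had 39.9, 36.7 and 35.7 CPM at dose 1, above its 21.3, 31.4 and 29 CPM in control ovaries (0.45 ± 0.15, adjusted p = 0.726 by edgeR), and Esam had 64.1, 54.8 and 52.7 CPM, above its 49.5, 49.7 and 41.4 CPM in controls (0.27 ± 0.14, adjusted p = 0.726). Cdh5 had 136, 133 and 146 CPM at dose 2, above its 63.5, 129 and 113 CPM in controls (0.42 ± 0.21, adjusted p = 0.419). Vwf stood at -0.04 at dose 1 and 0.26 at dose 2, and Emcn at 0.06 at dose 1 and -0.24 at dose 2. At dose 1, 9 of the 10 were above 0 with a median of 0.29 (0 over all genes), and for 4 of them all dose 1 libraries lay above the controls, as for 5.58% of genes. At dose 2 this held for 3 of the 10 (Flt1, Kdr and Cdh5) and for 10.5% of genes. F1 control library A was the lowest ovary library for Cdh5 (63.5 CPM), Kdr (51.4 CPM) and Tek (21.3 CPM), the highest for Emcn (36.1 CPM) and the highest for summed corpus luteum genes (9540 CPM), which stood at 4840 to 7150 CPM at dose 1 and 2660 to 9540 CPM in controls. Without it, Flt1 at dose 1 stood at 0.64 (adjusted p = 0.782) and Kdr at 0.53 (adjusted p = 0.782). At dose 2, library C, with 3.67 CPM of oviduct genes, had the highest Flt1, Kdr and Cdh5 of its group. At dose 2, Flt1 stood at 0.53 without library A and 0.66 without library B, and at 0.42 without control library A; Kdr stood at 0.50, 0.48 and 0.25, and Cdh5 at 0.44, 0.45 and 0.19 without the same libraries.

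**Figure D4:**
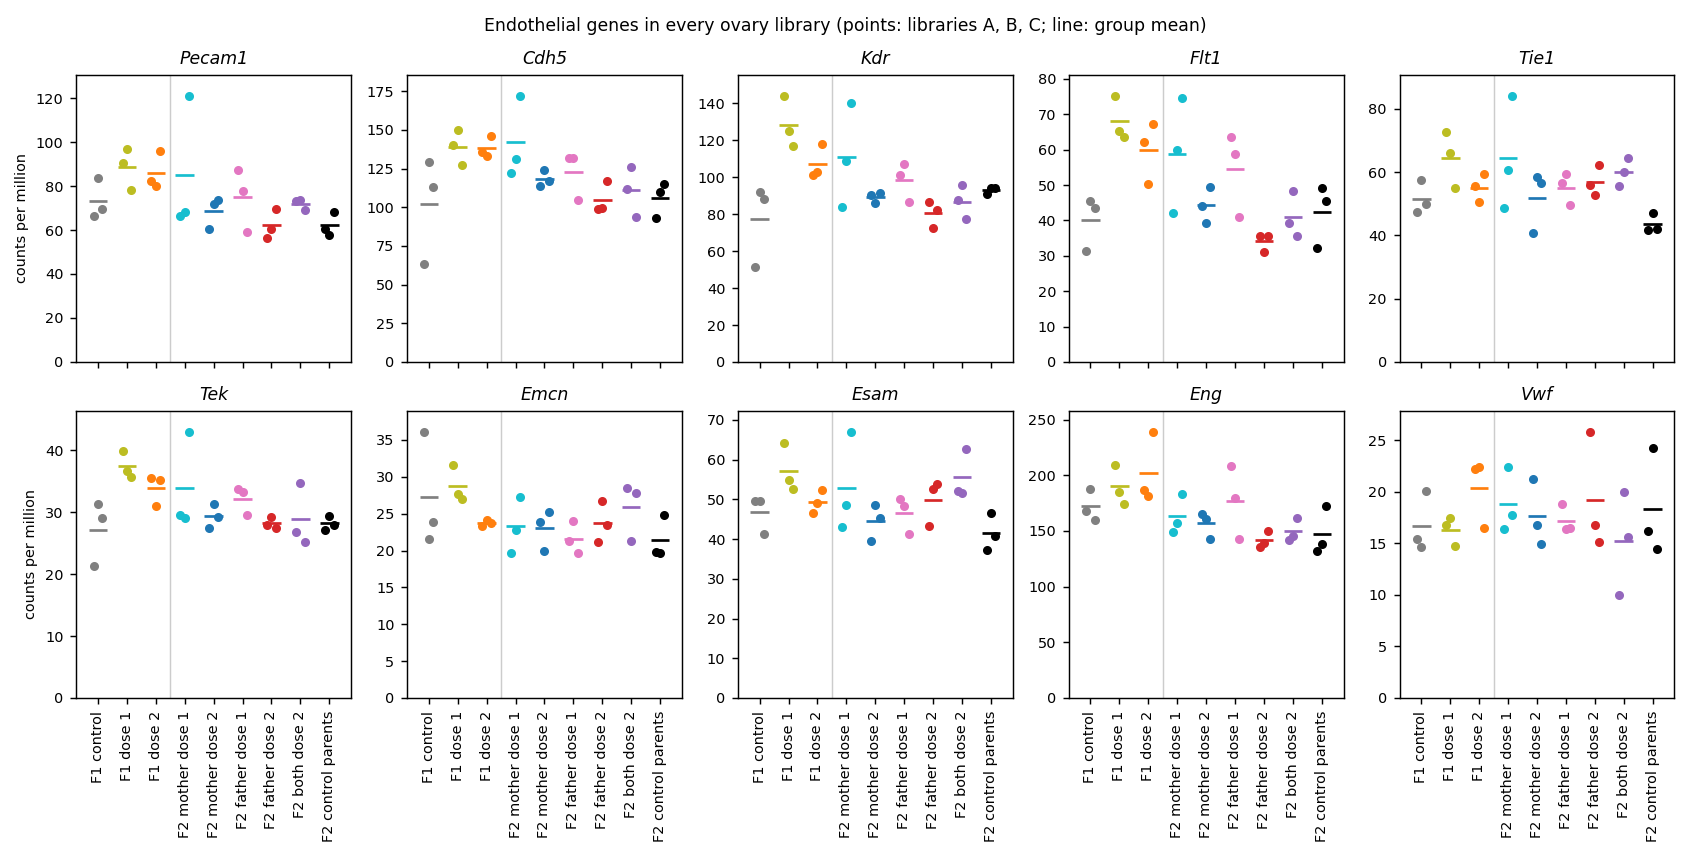
CPM (vertical axes, from 0) of each endothelial gene in every ovary library by group, with F1 left of the grey line and F2 right of it; points are libraries and lines are group means. Flt1 lies at 63.7 to 75.2 CPM in F1 dose 1 and 31.4 to 45.4 CPM in F1 control, and library C of mother dose 1 is the highest of all for Pecam1 (121 CPM) and Cdh5 (172 CPM).

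In F2 ovaries of exposed parents, Tie1 was the gene that most often lay clear of the control parents. It had 48.5, 60.6 and 84.1 CPM for mother dose 1, against 41.7, 47.2 and 42.1 CPM for control parents (log2 0.57 ± 0.18, edgeR adjusted p = 0.345). Against the same controls it had 56.4, 59.5 and 49.5 CPM for father dose 1 (0.35 ± 0.18, adjusted p = 0.556), 56, 52.7 and 62.2 CPM for father dose 2 (0.35 ± 0.18, adjusted p = 0.345) and 55.7, 59.9 and 64.3 CPM for both parents dose 2 (0.47 ± 0.18, adjusted p = 0.125). In each of these 4 crosses all libraries lay above those of control parents, and for mother dose 2 (40.6, 58.3 and 56.5 CPM; 0.25) they overlapped. Esam had 52, 51.6 and 62.7 CPM for both parents dose 2 against 37.3, 46.6 and 40.8 CPM for control parents, with no overlap (0.43 ± 0.17, adjusted p = 0.131). All libraries of the cross lay above those of control parents for 2 of the 10 genes and 7.21% of all genes for mother dose 1, 2 and 7.4% for father dose 1, 1 and 13.3% for father dose 2, and 3 and 12.6% for both parents dose 2. Kdr lay fully below control parents for father dose 2 (86.6, 72.3 and 82.2 CPM against 91.1, 94.4 and 93.9 CPM). In that cross 6 of the 10 genes had log2 fold changes below 0 (median -0.03). With both parents at dose 2 there were 3 below 0 (median 0.06). There were 2 in the mother dose 2 cross (median 0.1) and 1 in the father dose 1 cross (median 0.22). For mother dose 1 all 10 genes were above 0 (median 0.31; 0 over all genes), and library C held the highest value of its group for 9 of them, Vwf excepted. Without that library Tie1 stood at 0.29 and Cdh5 at 0.22, beside 0.57 and 0.42 with it.

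By edgeR, 0 of the 10 genes were called in each F2 cross. Of 17454 genes, the mother crosses called 0% at dose 1 and 0% at dose 2, with 5 and 0 of the 10 at an unadjusted p under 0.05, beside 9.2 and 5.83% of genes. The father crosses called 0% at dose 1 and 0.00573% at dose 2, with 0 of the 10 at an unadjusted p under 0.05 in either, beside 9.63 and 15.8% of genes, and both parents dose 2 called 0.688%, with 2 beside 24.5%. Father over mother also called 0 of the 10 at dose 1 (0% of genes, 0 and 4.93% of genes at an unadjusted p under 0.05) and at dose 2 (0.00573%, 0 and 20.4%). So did F2 of control parents over F1 control (0% of 17754 genes, 1, Emcn, and 14.0% of genes at an unadjusted p under 0.05), any difference among F2 groups (0%, 1, Flt1, and 26.3%) and the dose 2 effect between generations (7.18%, 1, Kdr, and 32.2%). DESeq2 called 0 of the 10 in each of these apart from any difference among F2 groups, where it called Flt1 and 19.4% of genes. Kdr, at -0.54 ± 0.25 (adjusted p = 0.136), was nearest to a call in the comparison of dose 2 effects. A test that misses the threshold does not show that the groups are alike.

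Ordered by group means over the 9 groups of a tissue, the testis had its highest mean in F2 of control parents for 5 genes (Pecam1, Cdh5, Tek, Eng and Vwf) and its lowest in F1 control for 4 (Cdh5, Flt1, Eng and Vwf). The ovary had its highest mean in F1 dose 1 for 7 genes, in F1 dose 2 for Eng and Vwf and in mother dose 1 for Cdh5. The highest group mean exceeded the lowest by 1.34-fold (Vwf and Emcn) to 2.00-fold (Flt1) in ovary and by 1.32-fold (Cdh5) to 1.83-fold (Eng) in testis. Of the 8 pairs of neighbours in each gene's order, nearly all overlapped. In testis the exceptions were 1 pair each for Cdh5 (F1 dose 2 above father dose 1), Tek (F1 control above both parents dose 2) and Vwf (father dose 2 above mother dose 1). In ovary they were 1 pair each for Cdh5 (F1 dose 2 above father dose 1) and Tie1 (F1 control above F2 of control parents).

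Within groups, the genes of the ovary varied together more than those of the testis. Each gene's log2 CPM was centred on its group mean and correlated over the 27 libraries of a tissue with the mean of the other 9. These values are descriptions, and the points share libraries and depth. The r of all genes was not set beside them, so they do not show covariation particular to endothelial genes. In ovary, Pearson's r was 0.835 for Flt1, 0.821 for Pecam1, 0.79 for Tie1, 0.744 for Kdr, 0.738 for Tek, 0.689 for Cdh5, 0.634 for Esam and 0.607 for Eng, but -0.017 for Emcn and -0.066 for Vwf. In testis r ran from 0.141 for Emcn to 0.619 for Esam, with Vwf at 0.391. The tissues differ in depth for these genes, with counts of 24 to 1253 per testis library and 436 to 24341 per ovary library. Counting noise is larger at low counts. In ovary, library C of mother dose 1 was the highest of all for Pecam1, Cdh5, Tie1, Tek and Esam, and F1 control A the lowest for Cdh5, Kdr and Tek. The part of depth and of these libraries in the contrast was not tested. For the genes whose promoters are printed above, r in ovary was 0.835 for Flt1, 0.79 for Tie1, 0.607 for Eng and -0.017 for Emcn. A link between promoter letters and covariation was not tested. The 10 genes outside the list that varied most like its mean in ovary, among 13845 ranked, were Cd300lg, Afap1l1, Rapgef3, Erg, Kifc3, Fgfr3, Pam, Dusp16, Gpr182 and Ctrb1 (r = 0.88 to 0.799). In testis, among 14204, they were Lama5, G3bp2, Skiv2l, Fat3, Khnyn, Ganab, Slc37a3, Col4a5, Aox1 and Abcc5 (r = 0.9 to 0.846).

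**Figure D5:**
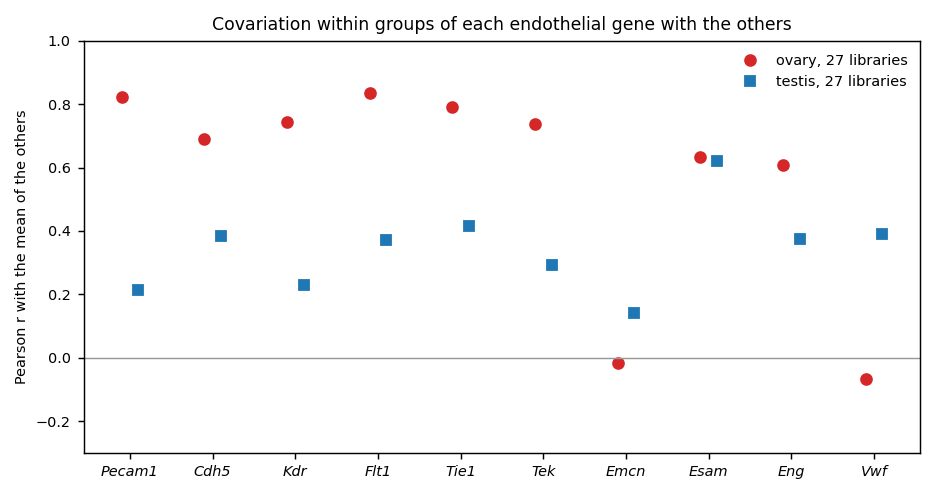
Pearson's r (vertical axis) of each endothelial gene with the mean of the other 9 over 27 libraries of a tissue, after centring on group means. In ovary 8 genes lie between 0.607 and 0.835 while Emcn and Vwf lie near 0; in testis the values lie between 0.141 and 0.619.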

How the data were processed

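Polyadenylated RNA of 27 testis and 27 ovary libraries was sequenced at 100 nt from a stranded ligation kit, per the labels' protocols. The submitters' processing notes name build mm39, the counter featureCounts 2.0.3, the aligners TopHat2 2.1.1 and Bowtie2 2.4.5, SAMtools 1.13, FastQC 1.19, bcl2fastq 2.20 and DESeq2 1.32.0. No source used here gives the strand setting or the annotation. The authors deposited raw counts per gene, not normalised, in 1 table per tissue. No gene ID stands beside 133 symbols of each table (0.319 to 0.377% of testis counts, 0.0591 to 0.0861% of ovary counts); these genes stayed in the totals and tests.

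Counts were tested here with edgeR 4.0.16 and limma 3.58.1 in R 4.3.3: robust quasi-likelihood, TMM factors, filterByExpr at a minimum of 10 counts, adjustment by Benjamini-Hochberg across all genes and a threshold of 0.05. Groups of a generation shared a fit, comparisons between generations used all 27 libraries of a tissue, and those between tissues the 12 unexposed libraries. The steps were tested on simulated counts. Alternatives were DESeq2 1.42.0, its size factors, library totals, no filter, other libraries in the fit, a replicate block and each library left out. The 10 genes and the lists beside them were chosen with earlier results of these data known; all 10 are named, and from each other list up to 4 called genes with the smallest p were named, beside exceptions stated where they stand. The 10 genes of highest r, with a mean of at least 1 CPM and no predicted name, were named for likeness (log2 of CPM plus 0.5).

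Replicates differed by more than sampling noise in every group (chi-square per gene 3.24 or more). The letters A, B and C, whose meaning the labels do not give, were checked as pairs by correlating deviations from group means. All 3 correlations exceeded 0.1 in ovary F1 dose 1 against control (0.294, 0.252 and 0.447) and ovary father dose 2 against control parents (0.286, 0.114 and 0.218), where the replicate block changed no call of the 10 genes. Lengths came from GENCODE and promoters from RefSeq, both of GRCm38, which differs from mm39, so no gene coordinates are given beside those of the promoters. Sequences and gene models of mm39 were not used here. Intervals cover only the spread between libraries.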

Additional observations from a re-analysis of the deposited data

Results flagged for a closer look

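The effect of dose 2 in the testis differed between F2 of both parents and F1, by the interaction term of the edgeR fit, for Cdh5 (log2 -0.67), Eng (-1.0) and Vwf (-0.85). Each change was below 0 in F2 (-0.38, -0.57 and -0.49) and above 0 in F1 (0.30, 0.44 and 0.36). The same comparison called 10.6% of 19467 genes, and Cdh5 and Eng were each called in 12 of 17 alternatives. The control groups themselves differed, with F2 of control parents over F1 control at 0.55 for Vwf and 0.86 for Eng, both called. Generation, batch and water cannot be told apart there.

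In 4 of the 50 pairs of gene and cross all libraries of a cross lay above those of control parents in ovary and below them in testis; the difference between the tissues was not tested. They were Cdh5 for mother dose 1 (0.42 in ovary and -0.28 in testis), Tek for father dose 1 (0.21 in ovary and -0.52 in testis), Tie1 for father dose 2 (0.35 in ovary and -0.38 in testis) and Esam for both parents dose 2 (0.43 in ovary and -0.50 in testis). Among 12918 genes with a mean of at least 1 CPM in each tissue, 0.844 to 2.62% showed this pattern in a cross (mean 1.61%), and 0.372 to 2.14% the opposite one. None of these changes was called by edgeR in either tissue, with adjusted p of 0.131 to 0.716 in ovary and 0.105 to 0.223 in testis.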

How the results depend on the processing

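No called value of the 10 genes changed sign under any alternative. The calls of ovary over testis held in every alternative, apart from Vwf in the F1 controls with library totals. DESeq2 called 2 of the 10 in testis F1 dose 2 (edgeR 0), 1 in dose 2 over dose 1 (0) and 1 among F1 groups (0). In testis F2 it called 2 for mother dose 1 (0), 2 for mother dose 2 (1), 1 for father dose 2 (0), 3 for both parents dose 2 (1) and 2 among F2 groups (1). Of all genes it called 3.4, 4.93, 9.63, 8.14 and 17.1% in these F2 comparisons, in the same order. In ovary it called 1 for F1 dose 1, 1 among F1 groups and 1 among F2 groups (0 each). With all 27 libraries in the fit, 1 was called in testis F1 dose 2; with only the 6 libraries compared, 1 there, 1 for mother dose 1, 1 for mother dose 2 (Eng in place of Vwf) and 0 for both parents dose 2. Library totals gave 0 for mother dose 2 and 0 among F2 groups. The letters did not pair the samples in 22 of 24 comparisons, although in 3 of these every library correlated best with its own letter; with the letter as a replicate block, testis mother dose 2 and the test among F2 groups had 0 called (1 each without it) and testis F2 of control parents over F1 control had 4 (3).

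With each library left out in turn, the count was 0 to 1 among testis F1 groups and for father dose 1, 0 to 2 for mother dose 1, mother dose 2, father dose 2, both parents dose 2 and among F2 groups, 1 to 3 for F2 of control parents over F1 control, 1 to 5 for the dose 2 effect, and 0 in all ovary comparisons. Over all genes, the testis counts ran from 6 to 1744 among F1 groups and from 224 to 1595 for father dose 1. They ran from 27 to 785 for mother dose 1, 40 to 1800 for mother dose 2 and 75 to 3122 for father dose 2. For both parents dose 2 the range was 116 to 2416, and among F2 groups 426 to 3506. It was 574 to 3185 for F2 of control parents over F1 control and 703 to 3420 for the dose 2 effect. Where a group kept 2 libraries, they were taken to vary like the other groups.

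Counts over all genes moved more, given here as the alternative with the edgeR count in brackets. DESeq2 called, in testis, 138 (6), 1917 (419), 1274 (43) and 1901 (97) genes for F1 dose 1, F1 dose 2, dose 2 over dose 1 and any F1 difference, 654 (157), 949 (327), 1282 (764), 1852 (1026) and 1567 (883) for the F2 crosses in the order of the report, 526 (223) and 93 (21) for father over mother at dose 1 and dose 2, and 3293 (1160) for any F2 difference. In ovary it called 78, 299, 271 and 432 (0 each) in the F1 comparisons, 126 (0), 14 (0), 81 (0), 370 (1) and 1861 (120) for the crosses, 5 (0) and 909 (1) for father over mother, 3393 (0) for any F2 difference, 122 (0) between the control groups and 3141 (1275) for the dose 2 effect. With all 27 libraries in the fit, testis F1 dose 1, F1 dose 2 and dose 2 over dose 1 had 27 (6), 1315 (419) and 935 (43), mother dose 1 had 98 (157) and father over mother at dose 2 had 6 (21). Ovary F1 dose 2 and dose 2 over dose 1 had 350 and 306 (0 each), mother dose 1 had 2 (0), both parents dose 2 had 0 (120), and father dose 2 and father over mother at dose 2 had 0 (1 each). With only the 6 libraries compared, the 3 testis F1 counts were 16 (6), 2132 (419) and 3 (43), testis mother dose 2, father dose 2 and both parents dose 2 had 202 (327), 458 (1026) and 120 (883), father over mother had 707 (223) and 61 (21), and ovary both parents dose 2 had 0 (120). Without the low-count filter, testis F1 dose 1, dose 2 over dose 1 and any F1 difference had 13 (6), 75 (43) and 150 (97), ovary both parents dose 2 had 47 (120), any ovary F2 difference 4 (0) and the ovary dose 2 effect 25 (1275). With the replicate block, testis F1 dose 2, dose 2 over dose 1 and any F1 difference had 167 (419), 7 (43) and 39 (97), father over mother at dose 2 had 11 (21), ovary counts of 0 reached 1 to 5, and the ovary dose 2 effect had 15 (1275). Without 1 library the count ran from 6 to 223 (419) in testis F1 dose 2, from 40 to 1800 (327) for mother dose 2, from 116 to 2416 (883) for both parents dose 2 and from 1 to 4158 (1275) for the ovary dose 2 effect. The cause was not tested.

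The median log2 change of the 10 genes moved by over 1 SD in 19 of 338 alternatives and took the other sign in 8. Low counts limit Emcn and Tie1 in testis, at 24 to 69 and 47 to 112 per library.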
